A study of Mus musculus with 9 samples.

Results

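The 40 genes described here make up a working set for cell division in mouse kidney. They are markers of proliferation, cyclins and their kinases, genes of DNA replication, mitotic kinases and checkpoint genes, kinetochore genes and inhibitors of cyclin-dependent kinases. They were taken by gene symbol from 52160 symbols, and the set was chosen with earlier results of these data known. Of the 40, 39 were among the 18067 genes with enough counts to be tested, and the checkpoint kinase gene Bub1, with 2 to 31 counts a library, was not.

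Polyadenylated RNA of whole kidney had been sequenced from mice at 16 weeks of age, all on the C57Bl/6N background, in 3 groups of 3 libraries. WT libraries came from wild-type animals. ΔPod libraries came from mice in which the podocytes, which line the glomerular filter, lack Ybx1. K2A libraries came from mice whose podocytes carry a Ybx1 changed at the lysines K299A and K302A, encoded in exon 7, which its secretion requires. Ybx1 encodes a cold shock protein that binds RNA and DNA. The labels name no promoter or Cre line behind either podocyte model, mark the ΔPod libraries with the word FLOX, and do not say whether the wild-type animals carry a floxed or Cre allele. Whether each library is a separate animal is not stated either, and p-values here refer to the spread among these samples.

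A cell that divides passes from growth through DNA synthesis to mitosis, and cyclins bound to cyclin-dependent kinases (CDKs) drive each step. At mitosis the kinetochore, built on centromeres that carry the histone variant CENP-A, ties each chromosome to the spindle through the NDC80 complex, whose subunits are NDC80, NUF2, SPC24 and SPC25. Most tubule cells and podocytes of an adult kidney are not dividing, and a podocyte that enters mitosis rarely completes it.

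Levels are counts scaled to a common library size with TMM factors (CPM), and a gene was called where the edgeR quasi-likelihood test gave a Benjamini-Hochberg adjusted p under 0.05 over all tested genes. The libraries held 30777142 to 46882253 counts. Ybx1 itself lay at 1190, 1585 and 1185 CPM in WT, at 1167, 881 and 605 CPM in ΔPod and at 1078, 1152 and 554 CPM in K2A. Every mutant library was below every WT library, but the gene was not called in either comparison (adjusted p = 0.465 and 0.725 in edgeR), and podocytes are a small part of the RNA of a kidney. Transcript length separated the libraries across all groups: shorter transcripts were relatively higher in WT 2, ΔPod 1, ΔPod 2, K2A 1 and K2A 2, and longer ones in WT 1, WT 3, ΔPod 3 and K2A 3. Xist was listed at 0 in all WT libraries and at 17.0 to 331 CPM in the mutant libraries, and the Y-linked genes checked went the opposite way, so genotype and sex cannot be told apart in the comparisons with WT.

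The promoters of 6 kinetochore and mitosis genes described below are shown. Y-box proteins are named for binding an inverted CCAAT box, which many mitotic promoters hold beside a cell cycle homology region (CHR). Whether Ybx1 acts through such boxes was not tested. The promoters run from 250 bases before to 50 after the annotated start, from RefSeq on GRCm38.p6. Each is written 5′ to 3′ on the strand of its gene. Capitals mark CHR matches (TTTGAA or its reverse complement) and CCAAT boxes (CCAAT or its reverse complement). The NDC80 subunit genes are at chr2:69206164-69206463 on the minus strand (Spc25), chr17:71526808-71527107 on the minus strand (Ndc80) and chr1:169531415-169531714 on the minus strand (Nuf2). The other promoters are at chr5:30666636-30666935 on the plus strand (Cenpa), chr3:135212313-135212612 on the plus strand (Cenpe) and chr19:34922108-34922407 on the plus strand (Kif20b).
Spc25: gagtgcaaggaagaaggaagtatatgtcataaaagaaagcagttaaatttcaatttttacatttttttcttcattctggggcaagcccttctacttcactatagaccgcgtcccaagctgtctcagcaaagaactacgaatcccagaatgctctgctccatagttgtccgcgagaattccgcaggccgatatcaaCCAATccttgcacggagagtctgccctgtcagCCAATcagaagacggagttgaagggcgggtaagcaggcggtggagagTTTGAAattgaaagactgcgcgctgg
Ndc80: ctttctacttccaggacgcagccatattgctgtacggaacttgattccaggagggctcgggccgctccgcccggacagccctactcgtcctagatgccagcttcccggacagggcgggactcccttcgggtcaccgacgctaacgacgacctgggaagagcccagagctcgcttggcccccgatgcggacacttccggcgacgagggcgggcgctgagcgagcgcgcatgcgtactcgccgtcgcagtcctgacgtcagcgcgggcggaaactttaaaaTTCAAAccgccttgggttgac
Nuf2: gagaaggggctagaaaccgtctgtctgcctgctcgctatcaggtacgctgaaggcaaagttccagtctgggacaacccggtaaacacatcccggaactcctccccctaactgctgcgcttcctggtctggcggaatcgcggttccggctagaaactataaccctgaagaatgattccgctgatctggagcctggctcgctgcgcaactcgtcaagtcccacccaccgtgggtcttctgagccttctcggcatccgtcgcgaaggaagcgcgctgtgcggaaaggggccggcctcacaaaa
Cenpa: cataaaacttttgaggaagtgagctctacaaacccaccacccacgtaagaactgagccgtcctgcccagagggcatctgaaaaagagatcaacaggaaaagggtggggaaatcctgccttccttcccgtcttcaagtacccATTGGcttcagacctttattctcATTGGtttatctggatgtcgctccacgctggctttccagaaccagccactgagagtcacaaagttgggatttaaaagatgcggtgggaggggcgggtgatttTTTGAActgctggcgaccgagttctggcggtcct
Cenpe: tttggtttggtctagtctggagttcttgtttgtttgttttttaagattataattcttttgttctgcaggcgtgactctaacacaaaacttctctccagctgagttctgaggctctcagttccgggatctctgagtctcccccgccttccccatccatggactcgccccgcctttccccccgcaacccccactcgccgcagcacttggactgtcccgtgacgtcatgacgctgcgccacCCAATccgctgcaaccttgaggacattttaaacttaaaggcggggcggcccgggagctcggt
Kif20b: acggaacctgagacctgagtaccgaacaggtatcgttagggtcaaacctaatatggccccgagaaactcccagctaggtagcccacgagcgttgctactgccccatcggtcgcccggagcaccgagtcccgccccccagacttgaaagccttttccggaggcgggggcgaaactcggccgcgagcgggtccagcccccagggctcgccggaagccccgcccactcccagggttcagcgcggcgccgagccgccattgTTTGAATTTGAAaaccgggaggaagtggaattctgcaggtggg

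The Spc25 promoter held CCAAT boxes at positions -55 and -23 and a CHR match at 25, counted from the start. Cenpa held inverted CCAAT boxes at -109 and -86 and a CHR match at 17. Ndc80 held a CHR match at 30 and no CCAAT box, and Nuf2 held neither. Cenpe held a CCAAT box at -12, and Kif20b held adjoining CHR matches at 8 and 14. Promoter entries existed for 32 of the 40 genes, with 36 starts. Among them were all NDC80 subunits but Spc24. Searched on both strands, CCAAT was found at 26 of the 36 starts (72.2%) and at 37.4% of all 32851 promoters in the table. TTTGAA was found at 13 starts (36.1%) against 17.9% of all promoters. Any of the E2F-type motifs TTTCGCGC, TTTGGCGC, TTTCCCGC and TTTGCCGC was found at 7 starts (19.4%) against 2.26% of all promoters. A match is a description of these letters and no evidence of binding.

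Across the whole set, Spc25 was the only gene called in either mutant. In ΔPod, 1 of 39 rose and 0 fell, where 0.985% of all tested genes were called. In K2A 0 of 39 were called by edgeR, where 0.847% of all genes were called. Spc25 was the 1 gene called in K2A by DESeq2, which called 5.03% of all tested genes there. With limma-voom without sample weights, 1 was called in ΔPod and 0 in K2A, where 1.2% and 1.05% of all genes were called. Between K2A and ΔPod 0 were called by edgeR, 0 by DESeq2 and 0 by unweighted limma-voom, and edgeR called 0% of all tested genes. Genes with an unadjusted p under 0.05 numbered 3 in ΔPod (Spc25, Spc24 and Cenpa), 3 in K2A (Spc25, Spc24 and Cdkn1a) and 1 between the mutants (Cdkn1a). Over all tested genes the shares under 0.05 were 13.8%, 10.6% and 2.01%. The median log2 fold change of the 39 genes was 0.13 in ΔPod and 0.07 in K2A, against 0.08 and 0.09 over all tested genes.

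**Figure D1:**
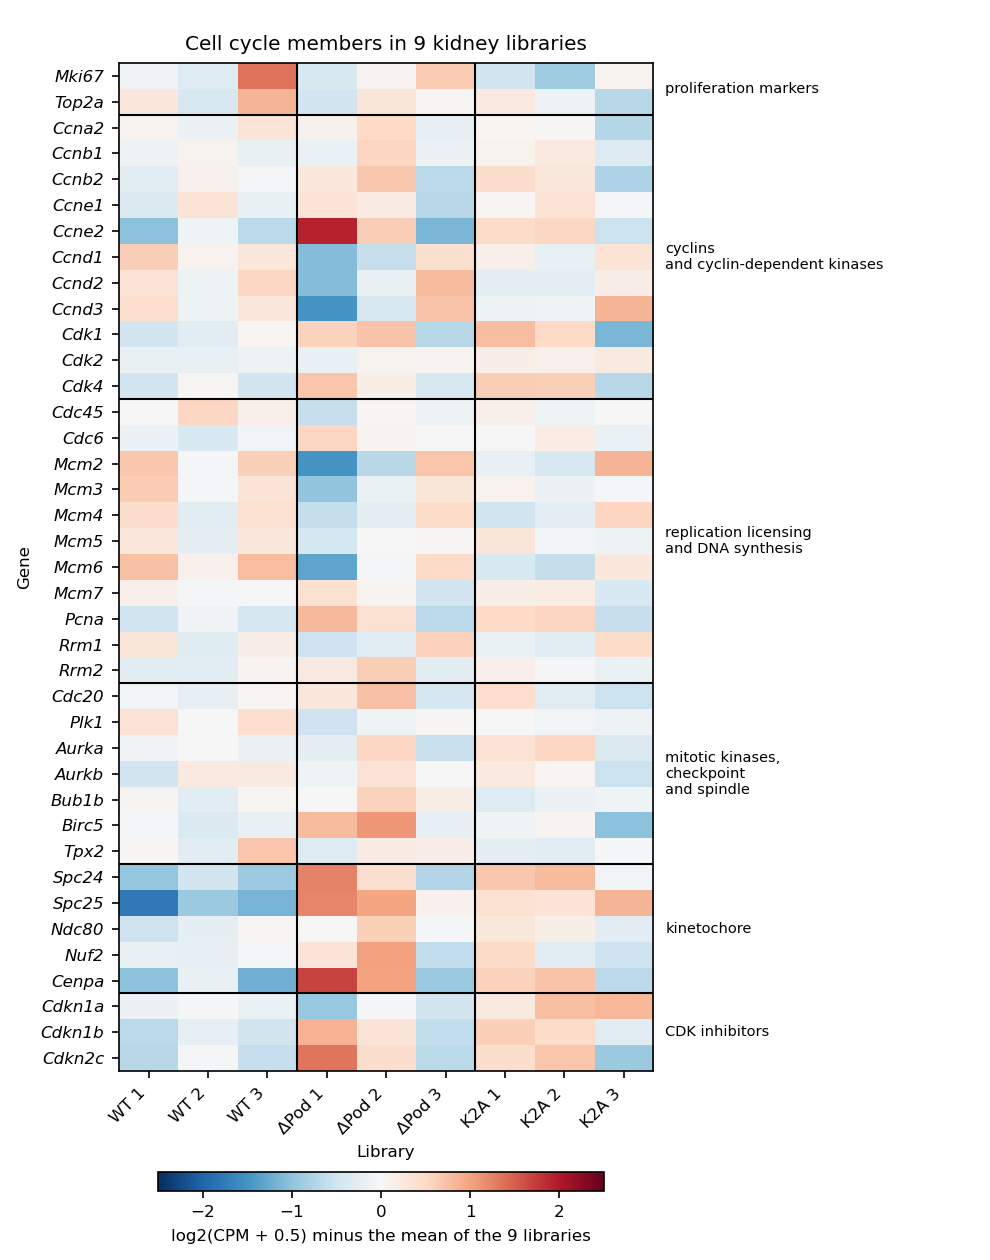
Colour gives log2(CPM + 0.5) of each of the 39 tested genes in each of the 9 libraries, minus the mean of the gene over the 9 libraries, with the genes grouped by role. Spc25 is the row in which all WT libraries are low and all mutant libraries are above the mean, and ΔPod 1 holds the deepest colours of rows such as Ccne2 and Mcm2.

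Few genes had groups that did not overlap. In ΔPod 2 of 39 genes (5.13%), Spc25 and Cdc6, lay above every WT library and 0 lay below, against 18.2% of all tested genes in either direction. In K2A 4 genes, Cdk2, Spc24, Spc25 and Cdkn1a, lay above and 1, Plk1, lay below (12.8% against 20.1%). Between the mutants, Cdk2 and Cdkn1a were higher in every K2A library and Bub1b was lower (7.69% against 5.11%).

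Kinetochore genes had the largest log2 fold changes of the set, Spc25 and Cenpa in ΔPod and Spc25 and Spc24 in K2A. Spc25, which encodes an NDC80 complex subunit of the globular end that faces the chromosome, is at chr2:69193895-69206194 on the minus strand of mm10. It lay at 11.1, 20.6 and 17.3 CPM in WT 1, 2 and 3. In ΔPod it lay at 92.6, 78.7 and 42.5 CPM, and in K2A at 51.3, 50.3 and 71.9 CPM. The lowest mutant library was thus above the highest WT library, and the mutant groups overlapped each other. The means were 16.3 ± 4.81 CPM in WT, 71.3 ± 25.8 in ΔPod and 57.8 ± 12.2 in K2A (SD, n = 3).

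Spc25 rose 4.37-fold in ΔPod, with a log2 fold change of 2.13 (SE 0.39, adjusted p = 0.0489 in edgeR). In K2A the log2 fold change was 1.82 (SE 0.39), with an unadjusted p of 0.00121 and an adjusted p of 0.0831 in edgeR, which missed the threshold. K2A differed from ΔPod by -0.30 on the log2 scale (95% interval -1.15 to 0.55, adjusted p = 1.0 in edgeR). Over 21 other settings of the analysis the ΔPod value lay between 1.88 and 2.53 and was called in 9. The K2A value lay between 1.58 and 2.15 and was called in 5. Both counts include limma-voom with sample weights, which called 78.9% of all genes in each mutant. The ΔPod call was lost in edgeR when any of WT 1, WT 2, WT 3, ΔPod 1, ΔPod 2, K2A 1 or K2A 2 was left out (in that order, adjusted p = 0.255, 0.154, 0.237, 0.129, 0.213, 0.104 and 0.104). It was also lost with RLE scaling, with no filter on low counts and with only the 6 libraries compared (adjusted p = 0.0521, 0.0618 and 0.134 in edgeR). With the length class of the libraries as a term, the log2 fold changes were 2.01 (adjusted p = 0.0136 in edgeR) and 1.77 (adjusted p = 0.0197).

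No annotated gene overlaps Spc25. The nearest neighbours lay at lower levels. Nostrin, just downstream, was at 2.5 to 5.01 CPM in WT, 3.02 to 5.23 in ΔPod and 3.65 to 8.86 in K2A. G6pc2, upstream, was not tested, with 1 to 14 counts a library. It was at 0.0277 to 0.0573 CPM in WT, 0.0723 to 0.282 in ΔPod and 0.0296 to 0.121 in K2A. All ΔPod libraries of G6pc2 were thus above WT. A shared change of these neighbours with Spc25 was not tested. In whole-kidney RNA, more cells that express a gene and more RNA of that gene per cell cannot be told apart.

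The partner of SPC25 in the same end of the complex is SPC24. Spc24 lay at 2.30, 3.49 and 2.40 CPM in WT, at 12.5, 6.82 and 2.78 CPM in ΔPod and at 8.27, 8.92 and 4.72 CPM in K2A. All K2A libraries were above WT, whereas ΔPod 3 lay within the WT range. The log2 fold changes were 1.43 (SE 0.53, adjusted p = 0.320 in edgeR) and 1.42 (SE 0.53, adjusted p = 0.359). Over 21 other settings the values for Spc24 lay between 0.70 and 1.78 in ΔPod and between 0.80 and 1.83 in K2A. With the length slope of each library as a covariate they were 0.70 and 0.97.

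Cenpa, for the centromeric histone variant, lay at 1.14, 2.43 and 0.939 CPM in WT, at 10.3, 6.14 and 1.25 CPM in ΔPod and at 4.49, 4.98 and 1.60 CPM in K2A. Both mutant groups overlapped WT through library 3, and the log2 fold changes were 1.97 (SE 0.78, adjusted p = 0.337 in edgeR) and 1.29 (SE 0.76, adjusted p = 0.632).

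The microtubule-binding end of the complex, NDC80 and NUF2, was at the edge of detection. Ndc80 lay at 0.194, 0.344 and 0.519 CPM in WT, at 0.506, 1.01 and 0.464 CPM in ΔPod and at 0.713, 0.593 and 0.315 CPM in K2A. Nuf2 lay at 0.444, 0.429 and 0.544 CPM in WT, at 0.832, 1.66 and 0.202 CPM in ΔPod and at 0.992, 0.385 and 0.242 CPM in K2A. Neither gene separated the groups, with log2 fold changes of 0.90 and 0.60 for Ndc80 (SE 0.53 and 0.54) and 0.92 and 0.18 for Nuf2 (SE 0.76 and 0.77). All 5 kinetochore genes of the set had a log2 fold change above 0 in both mutants, with a median of 1.43 in ΔPod and 1.29 in K2A. Kinetochore genes outside the set did not all go this way, and Cenpe, described below, fell. Of 51 other tested mitosis genes, Cenpe among them, 31 were above 0 and 20 below in ΔPod. In K2A 25 were above and 26 below. Of the 5, 1 was called in ΔPod and 0 in K2A by edgeR.

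**Figure D2:**
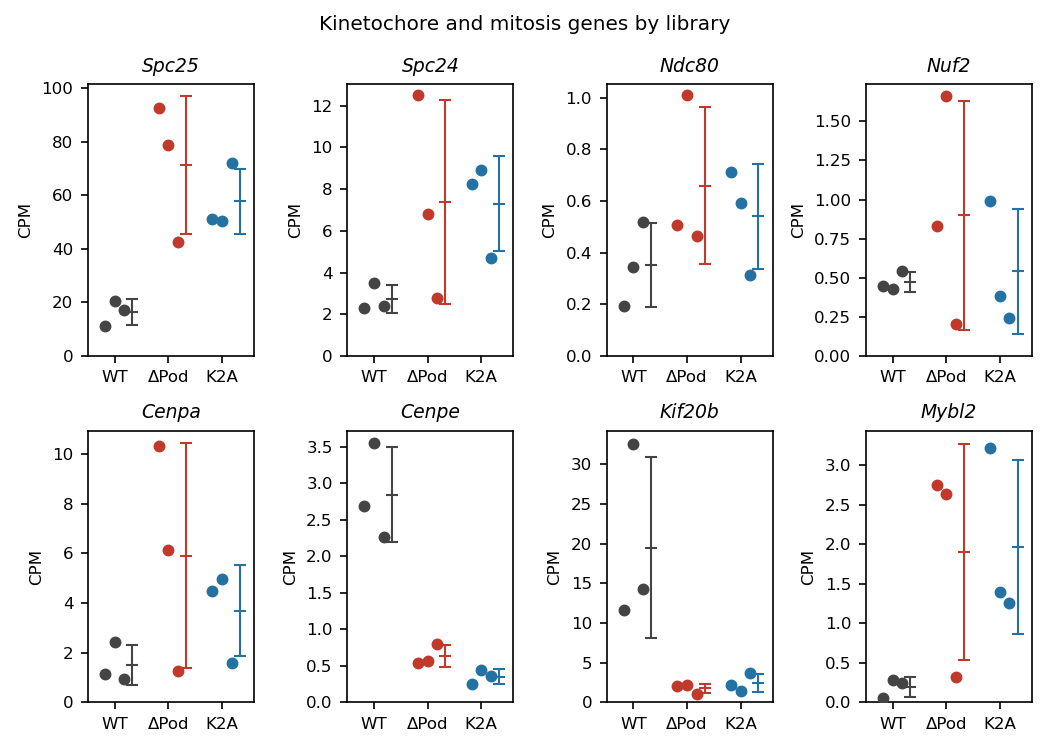
Points are libraries 1, 2 and 3 of each group from left to right, in CPM, and bars are the mean and SD of 3 libraries, for the 5 kinetochore genes of the set and for Cenpe, Kif20b and Mybl2. Spc25 is above WT in all 6 mutant libraries, with the lowest at 42.5 CPM, whereas Spc24, Cenpa and Nuf2 lie within or below the WT range in ΔPod 3.

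Per kilobase of transcript, Spc25 was far more abundant than the other subunits of its complex. It lay at 3.48 to 6.45 CPM per kilobase in WT, at 13.3 to 29.0 in ΔPod and at 15.8 to 22.6 in K2A. The ratio of Spc25 to Ndc80 on that scale was 68.0 to 122 in WT, 159 to 372 in ΔPod and 147 to 465 in K2A. The ratio to Nuf2 was 49.7 to 95.2, 94.0 to 420 and 103 to 591. Its ratio to Spc24 was 3.89 to 5.83 in WT, 5.97 to 12.3 in ΔPod and 4.55 to 12.3 in K2A. The ratio to Ndc80 was higher in each mutant library than in each WT library. The ratio to Spc24 overlapped WT in K2A, and the ratio to Nuf2 overlapped WT in ΔPod. A union of annotated exons served as the transcript length, so a shorter form of a gene in use here would lie higher than stated.

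Neither marker of proliferation was called. Mki67, which encodes the Ki-67 antigen of cycling nuclei, lay at 0.721, 0.544 and 2.82 CPM in WT, at 0.506, 0.867 and 1.53 CPM in ΔPod and at 0.434, 0.207 and 0.895 CPM in K2A. The highest library was WT 3 and the groups overlapped, with log2 fold changes of -0.48 (SE 0.76, adjusted p = 0.743 in edgeR) and -1.40 (SE 0.78, adjusted p = 0.607). Top2a, the topoisomerase that untangles replicated chromosomes, was at 0.945 to 2.94 CPM in WT, 0.868 to 1.83 in ΔPod and 0.678 to 1.74 in K2A. Its log2 fold changes were -0.45 and -0.63 (SE 0.52 and 0.53), and neither was called.

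Of 11 cyclin and CDK genes, 0 were called in any comparison by edgeR, 0 had an unadjusted p under 0.05, and 8 had a log2 fold change above 0 in each mutant. Ccnd1, Ccnd3 and Cdk4 were the abundant ones. Ccnd1, for the cyclin that couples growth signals to CDK4, lay at 231, 160 and 183 CPM in WT, at 70.5, 101 and 198 CPM in ΔPod and at 164, 132 and 191 CPM in K2A. ΔPod 1 and ΔPod 2 were the lowest libraries and ΔPod 3 was within WT. Its log2 fold changes were -0.64 (SE 0.40) and -0.23 (SE 0.40).

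Cdk4 itself ran the other way in the same libraries, at 59.9, 85.5 and 59.9 CPM in WT, 136, 93.6 and 63.6 CPM in ΔPod and 130, 127 and 51.6 CPM in K2A. The third library of each mutant lay within or below the WT range, with log2 fold changes of 0.51 and 0.58 (SE 0.43 for both). Cdk4, at chr10:127063534-127067920, overlaps Tspan31, at chr10:127067280-127070264 on the opposite strand, which was at a mean of 139 CPM. Reads in the shared end cannot be assigned to either gene, since the strand setting of the counting is not stated. Ccnd3, another D-type cyclin, was at 70.0 to 102 CPM in WT, 27.2 to 125 in ΔPod and 70.1 to 138 in K2A. Ccnd2 was at 9.48 to 15.1 CPM, 4.67 to 18.3 and 8.77 to 11.7 in the same order.

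Ccne2, a cyclin that activates CDK2 at the start of DNA synthesis, had the largest log2 fold change of the cyclins. It lay at 0.721, 1.80 and 1.06 CPM in WT, at 8.93, 3.31 and 0.625 CPM in ΔPod and at 2.94, 3.05 and 1.23 CPM in K2A. ΔPod 3 was below all WT libraries, and the log2 fold changes of 1.83 (SE 0.85, adjusted p = 0.377 in edgeR) and 1.01 (SE 0.83, adjusted p = 0.75) were not called. Its relative Ccne1 had log2 fold changes of 0.11 and 0.35 (SE 0.70 for both). Ccne2 overlaps Ints8 on the opposite strand, at a mean of 19.7 CPM, so the counts of Ccne2 are uncertain.

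Cdk2 varied little among libraries. It lay at 7.87, 7.93 and 8.20 CPM in WT, at 7.92, 9.68 and 9.51 CPM in ΔPod and at 10.2, 9.78 and 10.7 CPM in K2A. The K2A libraries were above all others, by a log2 fold change of 0.36 over WT (SE 0.23, adjusted p = 0.686 in edgeR).

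The cyclins and kinase of mitosis were near 1 CPM. Cdk1 lay at 0.721, 0.888 and 1.26 CPM in WT, at 2.03, 2.27 and 0.544 CPM in ΔPod and at 2.39, 1.90 and 0.266 CPM in K2A. In each mutant, libraries 1 and 2 were above WT and library 3 was below it. Its log2 fold changes were 0.75 and 0.66 (SE 0.77 and 0.78). Ccna2, Ccnb1 and Ccnb2 had log2 fold changes of 0.09, 0.43 and 0.36 in ΔPod and of -0.41, 0.21 and 0.21 in K2A, each smaller than its SE.

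Of 11 genes of replication and DNA synthesis, 0 were called in any comparison by edgeR and 0 had an unadjusted p under 0.05. In ΔPod 4 were above 0 on the log2 scale and 7 below, and in K2A 3 and 8. The MCM genes encode the helicase that unwinds replication origins. Mcm2 lay at 14.4, 8.53 and 13.5 CPM in WT, at 2.86, 5.23 and 14.6 CPM in ΔPod and at 7.69, 6.52 and 16.3 CPM in K2A. The low values were in libraries 1 and 2 of each mutant and the third library was above WT. Mcm3, Mcm4, Mcm5 and Mcm6 had log2 fold changes of -0.58, -0.30, -0.27 and -0.70 in ΔPod and of -0.40, -0.23, -0.08 and -0.78 in K2A. Mcm7 stood at 0.00 and -0.02 (SE 0.31 for both), but it overlaps Cops6 and Ap4m1 on the opposite strand.

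Pcna, for the sliding clamp of DNA polymerase, lay at 25.0, 33.6 and 26.4 CPM in WT, at 63.3, 46.8 and 22.2 CPM in ΔPod and at 50.8, 52.1 and 23.8 CPM in K2A. Libraries 1 and 2 of each mutant were above WT and library 3 was below it. The log2 fold changes were 0.64 (SE 0.44, adjusted p = 0.485 in edgeR) and 0.58 (SE 0.44, adjusted p = 0.735). The origin-loading factor Cdc6 lay at 0.250, 0.143 and 0.297 CPM in WT, at 0.687, 0.375 and 0.322 CPM in ΔPod and at 0.341, 0.445 and 0.242 CPM in K2A. It was above WT in all ΔPod libraries, by a log2 fold change of 0.97 (SE 0.49, adjusted p = 0.391 in edgeR). Cdc45, a part of the active helicase, had log2 fold changes of -0.57 and -0.29 (SE 0.35 for both). The ribonucleotide reductase subunit genes Rrm1 and Rrm2, which supply DNA precursors, stood at -0.07 and 0.43 in ΔPod and at -0.03 and 0.14 in K2A.

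**Figure D3:**
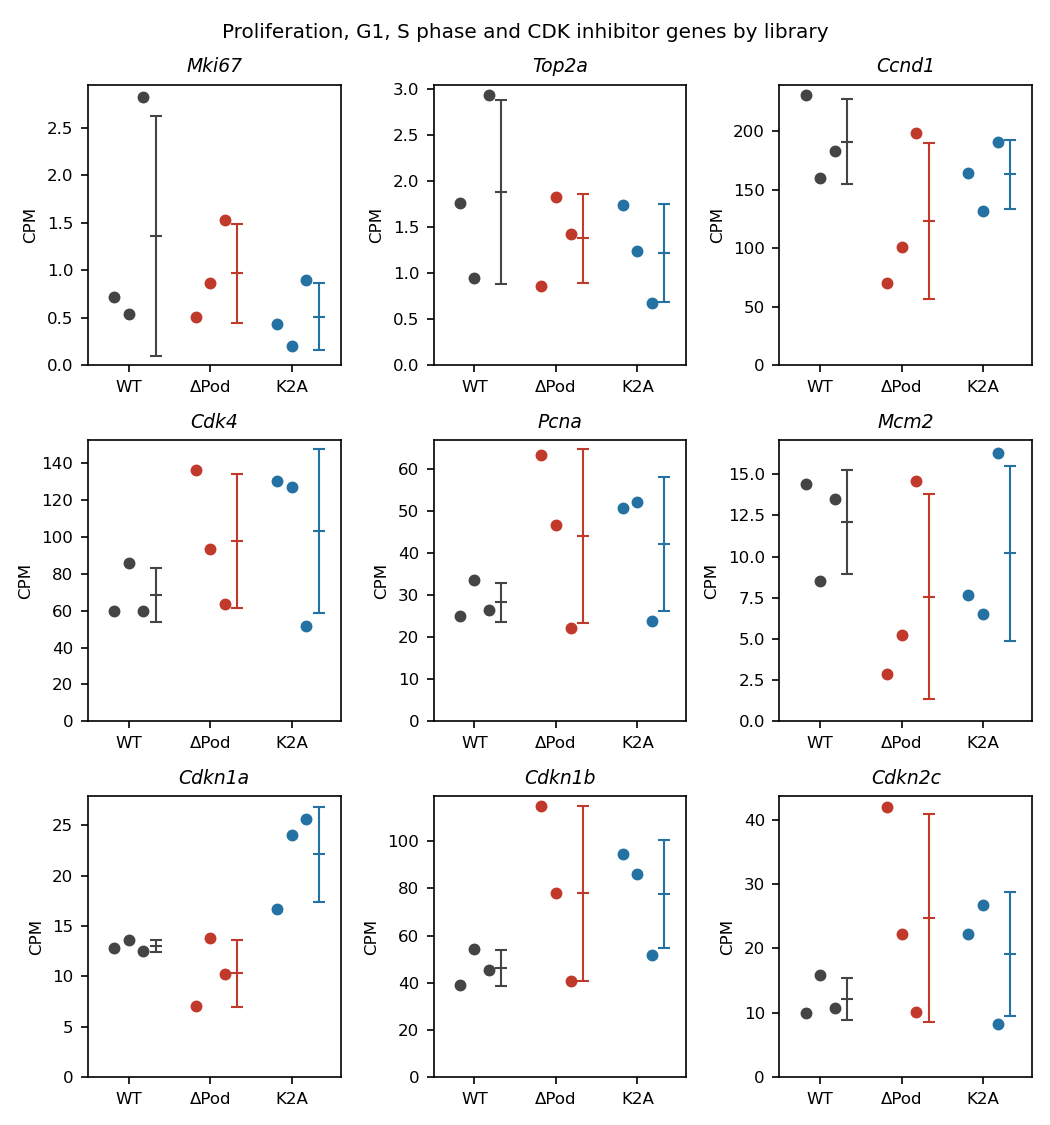
Points are libraries 1, 2 and 3 of each group from left to right, in CPM, and bars are the mean and SD of 3 libraries, for markers of proliferation, genes of growth and DNA synthesis and CDK inhibitors. The third library of ΔPod and of K2A lies close to WT in Cdk4, Pcna, Mcm2, Cdkn1b and Cdkn2c, whereas all K2A libraries of Cdkn1a, from 16.7 CPM, are above WT.

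Of 8 genes of mitotic kinases, the spindle and its checkpoint, 7 were tested and 0 were called in any comparison by edgeR, with 0 at an unadjusted p under 0.05. Plk1, for a kinase that acts from mitotic entry to exit, lay at 0.610, 0.372 and 0.667 CPM in WT, at 0.109, 0.305 and 0.383 CPM in ΔPod and at 0.372, 0.326 and 0.290 CPM in K2A. Every K2A library was at or below the lowest WT library, and the values differ little between WT 2 and K2A 1. The log2 fold changes were -1.01 (SE 0.49, adjusted p = 0.388 in edgeR) and -0.74 (SE 0.49, adjusted p = 0.691). Birc5, which encodes survivin of the chromosomal passenger complex, lay at 0.887, 0.601 and 0.741 CPM in WT, at 1.95, 2.48 and 0.725 CPM in ΔPod and at 0.806, 0.978 and 0.194 CPM in K2A. ΔPod 1 and ΔPod 2 were the high libraries, and the log2 fold changes were 1.20 (SE 0.63) and -0.18 (SE 0.64).

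Aurka and Aurkb, for the Aurora kinases of the spindle poles and the centromere, had log2 fold changes of 0.09 and 0.13 in ΔPod and of 0.44 and -0.19 in K2A. Tpx2, for the activator of Aurora A, stood at -0.28 and -0.66 (SE 0.48 and 0.49). Cdc20, for the activator of the anaphase-promoting complex that the checkpoint holds back, stood at 0.43 and -0.01 (SE 0.46 for both). Bub1b, for the checkpoint protein BUBR1, lay at 1.11, 0.773 and 1.09 CPM in WT, at 1.05, 1.81 and 1.23 CPM in ΔPod and at 0.744, 0.889 and 0.944 CPM in K2A. Every ΔPod library was above every K2A library, by a log2 difference of -0.66 of K2A from ΔPod (SE 0.34, adjusted p = 1.0 in edgeR). The untested Bub1 was at 0.0554 to 0.222 CPM in WT, 0.145 to 0.727 in ΔPod and 0.0968 to 0.279 in K2A.

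The 3 CDK inhibitor genes differed from each other. Cdkn1a, which encodes p21 and is a target of p53, lay at 12.8, 13.6 and 12.5 CPM in WT, at 7.05, 13.8 and 10.2 CPM in ΔPod and at 16.7, 24.0 and 25.6 CPM in K2A. All K2A libraries were above all others, and ΔPod overlapped WT. The log2 fold change was 0.77 in K2A (SE 0.32, adjusted p = 0.422 in edgeR) and -0.32 in ΔPod (SE 0.32, adjusted p = 0.604). Between K2A and ΔPod it was 1.09 (SE 0.32, adjusted p = 1.0 in edgeR, 95% interval 0.37 to 1.82), so that contrast was not called either. With the length slope of each library as a covariate, the log2 fold change in K2A was 0.84 (adjusted p = 0.0419 in edgeR), and with the length class as a term it was 0.79 (adjusted p = 0.180). It was called in 2 of 21 other settings. These were the length slope, with 15.8% of all genes called, and limma-voom with sample weights, with 78.9%.

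Cdkn1b, for p27, lay at 39.1, 54.5 and 45.3 CPM in WT, at 115, 78.1 and 40.6 CPM in ΔPod and at 94.7, 86.1 and 51.9 CPM in K2A. Cdkn2c, for p18 of the INK4 family, lay at 9.93, 15.9 and 10.7 CPM in WT, at 41.9, 22.2 and 10.1 CPM in ΔPod and at 22.2, 26.8 and 8.30 CPM in K2A. In both genes libraries 1 and 2 of each mutant were above WT and library 3 was not. Cdkn1b had log2 fold changes of 0.75 and 0.74 (SE 0.41 for both) and Cdkn2c of 1.02 and 0.65 (SE 0.58 for both).

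**Figure D4:**
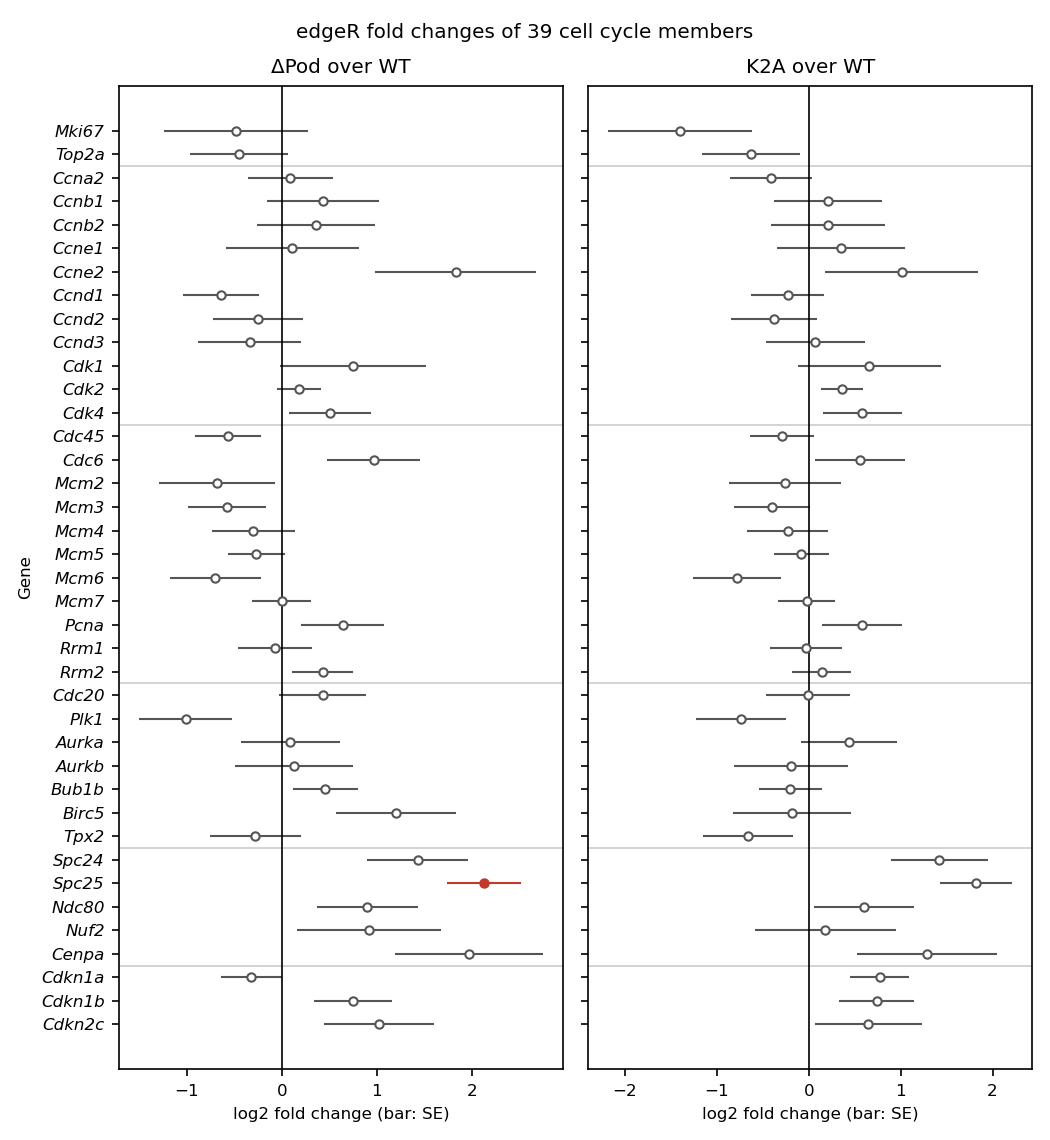
Points are edgeR log2 fold changes over WT and bars are their SE, for the 39 tested genes by role, with ΔPod on the left and K2A on the right. The filled point is Spc25 in ΔPod, at 2.13, the gene that was called, and the 5 kinetochore genes are above 0 in both panels.

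Many genes were at their highest or lowest in the same few libraries. ΔPod 1 was the highest library for 10 of the 39 genes and the lowest for 13. ΔPod 2 was the highest for 11 and the lowest for 0. K2A 3 was the highest for 5 and the lowest for 10.

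The libraries were classed by the slope of their levels on transcript length, so a negative relation of the class ratio with length follows from the classing. In the 39 genes the log2 ratio of the 5 short-transcript libraries over the 4 long-transcript libraries had a Spearman rho of -0.45 with log2 length, against -0.54 in 17599 genes with a length. This is a description over genes that share the same libraries. Within the libraries of 1 length class, 26 of 39 genes were above 0 in ΔPod over WT in the short-transcript libraries and 14 in the long-transcript libraries. In K2A the counts were 29 and 12. Spc25 was above WT in all of these, by 2.06 and 1.58 on the log2 scale in ΔPod and by 1.31 and 2.34 in K2A. Spc24 was above by 1.47 and 0.24 in ΔPod and by 1.3 and 1.01 in K2A. Cenpa was above by 1.76 and 0.27 in ΔPod and by 0.96 and 0.62 in K2A. Nuf2 stood at 1.54 and -1.29 in ΔPod and at 0.68 and -1.03 in K2A, and Ndc80 at 1.14 and 0.38 in ΔPod and at 0.93 and -0.18 in K2A. In the long-transcript libraries, 4 of 5 kinetochore genes were thus above WT in ΔPod and 3 of 5 in K2A. These within-class values rest on 1 or 2 libraries a group and carry no test. The slope on length was -0.0582 in WT 2, the only WT library of the short-transcript class. It was -0.377 and -0.141 in ΔPod 1 and ΔPod 2, and -0.206 and -0.217 in K2A 1 and K2A 2. The comparisons within that class are therefore not matched for length.

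**Figure D5:**
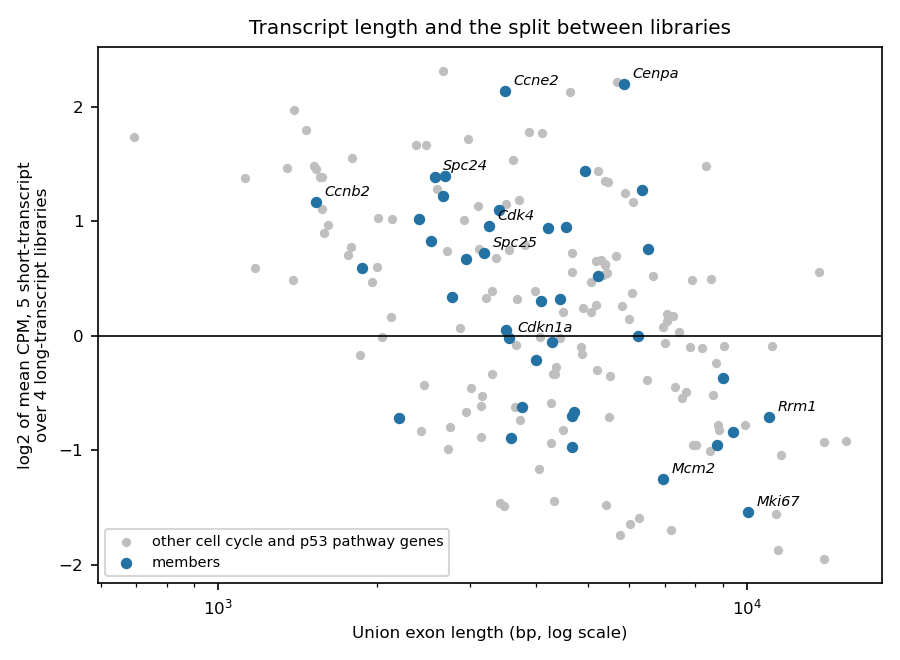
Points are genes, with the union exon length in base pairs on a log axis and the log2 ratio of mean CPM in the 5 short-transcript libraries over the 4 long-transcript libraries. Blue points are the 39 tested genes of the set and grey points are the other cell cycle and p53 pathway genes. Long genes such as Mki67 and Mcm2 lie below 0, and 23 of the 39 genes lie above it.

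Markers of some other cell types were high in the same libraries. The 14 genes of proliferation, mitosis and the kinetochore other than Spc25 summed to 12.6, 13.6 and 17.5 CPM in WT, 32.6, 30.0 and 13.1 CPM in ΔPod and 23.8, 22.6 and 12.4 CPM in K2A. T cell markers, of which 7 of 7 were tested, summed to 6.40 to 8.27 CPM in WT, 7.88 to 17.8 in ΔPod and 3.75 to 13.4 in K2A. Macrophage and myeloid markers, 9 of 9 tested, summed to 116 to 144 CPM in WT, 120 to 281 in ΔPod and 88.0 to 230 in K2A. Adipocyte markers, 8 of 9 tested, with Retn and Ucp1 at 0 in WT, summed to 32.0 to 79.8 CPM in WT, 23.4 to 537 in ΔPod and 43.2 to 1235.5 in K2A. Urothelial markers, 8 of 8 tested, summed to 6.82 to 12.4 CPM, 0.846 to 54.4 and 11.9 to 118. The low end in each mutant was library 3. Other lists did not have this order. Erythroid markers, 6 of 7 tested, summed to 268, 890 and 270 CPM in WT, 1009.8, 553 and 195 in ΔPod and 411, 409 and 633 in K2A. B and plasma cell markers, 7 of 8 tested, summed to 10.5 to 23.2 CPM in WT, 17.6 to 23.8 in ΔPod, with ΔPod 2 the lowest, and 7.33 to 33.9 in K2A. No gene of these lists was called. Their part in the levels of the cell cycle genes was not tested. T cell, macrophage and myeloid, adipocyte and urothelial markers were the lowest of their group in ΔPod 3 and K2A 3, whereas erythroid markers were highest in K2A 3 among K2A. Spc25 was at 42.5 CPM in ΔPod 3 and 71.9 CPM in K2A 3. Without ΔPod 1, K2A 1 and K2A 2, the libraries highest in adipocyte markers, its log2 fold changes were 1.89 (adjusted p = 0.233 in edgeR) and 2.15 (adjusted p = 0.289). There K2A had 1 library, assumed to vary like the rest.

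Podocyte markers, 8 of 8 tested, summed to 258 to 525 CPM in WT, 136 to 855 in ΔPod and 251 to 633 in K2A. Proximal tubule markers, 10 of 10 tested, summed to 12290.4 to 21715.2 CPM in WT, 3364.1 to 14702.7 in ΔPod and 5160.8 to 11967 in K2A. Endothelial markers, 7 of 7 tested, summed to 362 to 577 CPM in WT, 164, 275 and 594 in ΔPod and 394, 393 and 629 in K2A. Podocyte, proximal tubule, endothelial, and thick limb and distal tubule markers were the highest of their group in ΔPod 3 and K2A 3. Collecting duct and stromal markers were highest in ΔPod 3 but lowest in K2A 3 of their groups. Markers of the labelled tissue were thus present in every library, and no gene of these lists was called.

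Levels of different genes were compared per kilobase of transcript. In WT the highest were Ccnd1 at 40.6 ± 7.69, Cdk4 at 21.1 ± 4.56, Pcna at 11.8 ± 1.92, Cdkn1b at 10.2 ± 1.71 and Ccnd3 at 10.1 ± 1.87 CPM per kilobase (SD, n = 3). Pcna, Cdkn1b and Ccnd3 did not differ beyond their spread. Spc25 stood in place 7 of 40 at 5.12 ± 1.51, above every other gene of mitosis in the set. The lowest were Bub1 at 0.0322 and Cdc6 at 0.0439. Among the tested genes, 12 had a WT mean under 1 CPM and 27 had at least 1 CPM.

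Further genes of the pathway were read from 5 lists: other S phase genes, other mitosis genes, E2F, RB and related transcription factors, other CDKs with their inhibitors and CDC25, and p53 targets. Of 150 genes, 138 were tested. In ΔPod 0 rose and 2 fell, and in K2A 0 rose and 1 fell, all in the list of 51 tested mitosis genes. The 2 and 1 calls among 138 genes lie near the shares called over all tested genes, 0.985% and 0.847%. Unadjusted p-values under 0.05 numbered 15 of 138 in ΔPod and 12 in K2A, where 13.8% and 10.6% of all genes had one. The median log2 fold changes of the 5 lists were 0.16, 0.16, -0.22, 0.60 and 0.29 in ΔPod in the order given, and 0.03, 0.00, 0.00, 0.41 and 0.10 in K2A.

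Cenpe, at chr3:135212537-135273611, encodes the kinesin that moves chromosomes along the spindle from the kinetochore. It lay at 2.69, 3.55 and 2.27 CPM in WT, at 0.543, 0.563 and 0.806 CPM in ΔPod and at 0.248, 0.445 and 0.363 CPM in K2A. All mutant libraries were below all WT libraries. It fell by 2.14 on the log2 scale in ΔPod (SE 0.36, adjusted p = 0.0359 in edgeR) and by 3.0 in K2A (SE 0.38, adjusted p = 0.0152). The K2A call was lost without WT 1, WT 2, WT 3, K2A 1 or K2A 2 (adjusted p = 0.0851, 0.0729, 0.0717, 0.0930 and 0.0776 in edgeR). The ΔPod call was lost without any of WT 1, WT 2, WT 3, ΔPod 1, ΔPod 2, K2A 1 or K2A 2 (adjusted p 0.0688 to 0.201 in edgeR). It was also lost with library size alone, with no filter and with only the 6 libraries compared (adjusted p = 0.0526, 0.0535 and 0.0911 in edgeR). Without the 3 libraries highest in adipocyte markers neither call held (adjusted p = 0.188 in ΔPod and 0.243 in K2A, in edgeR).

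Kif20b, at chr19:34922361-34975745, encodes a kinesin that works in the last step of cell division. It lay at 11.6, 32.6 and 14.3 CPM in WT, at 2.03, 2.18 and 1.09 CPM in ΔPod and at 2.17, 1.45 and 3.68 CPM in K2A. The groups did not overlap with WT, and WT 2 stood above the other WT libraries. It fell by 3.47 on the log2 scale in ΔPod (SE 0.56, adjusted p = 0.0313 in edgeR). In K2A the log2 fold change was -3.0 (SE 0.55, adjusted p = 0.0540 in edgeR), which missed the threshold. The ΔPod call was lost without any of WT 1, WT 2, WT 3, ΔPod 1, ΔPod 2, K2A 1 or K2A 2 (adjusted p 0.0519 to 0.143 in edgeR). It was also lost with only the 6 libraries compared and without the 3 libraries highest in adipocyte markers (adjusted p = 0.0806 and 0.154 in edgeR).

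Between the mutants 0 of 138 were called by edgeR and 4 had an unadjusted p under 0.05, a share near the 2.01% of all tested genes. The 4 are given as values only. E2f1, an activator of S phase genes, was at -0.75 in K2A relative to ΔPod, and Cenpe at -0.85. Zwint, for a kinetochore protein of the checkpoint, was at 0.52 and Mcm10, for a factor of replication forks, at 0.86. The adjusted p was 1.0 in edgeR for each.

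A pair of uncalled genes is named because their values were seen to stand out. Gadd45g, for a growth arrest protein that binds CDK1, had the smallest p of the uncalled pathway genes in ΔPod. It lay at 32.4, 37.6 and 27.2 CPM in WT, at 123, 75.7 and 78.3 CPM in ΔPod and at 54.1, 71.9 and 54.0 CPM in K2A. No mutant library overlapped WT, and the log2 fold changes were 1.51 (SE 0.30, adjusted p = 0.0638 in edgeR) and 0.89 (SE 0.30, adjusted p = 0.286). It was called in 5 of 21 other settings in ΔPod and in 2 of 21 in K2A. The 21 settings include limma-voom with sample weights, which called 78.9% of all genes in each mutant.

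Mybl2 encodes a transcription factor of S phase and mitotic genes. It lay at 0.0554, 0.286 and 0.247 CPM in WT, at 2.75, 2.63 and 0.322 CPM in ΔPod and at 3.22, 1.39 and 1.26 CPM in K2A. All mutant libraries were above all WT libraries, ΔPod 3 by a small margin. The log2 fold changes of 3.24 (SE 0.90, adjusted p = 0.192 in edgeR) and 3.29 (SE 0.90, adjusted p = 0.186) were not called.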

How the data were processed

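Whole-kidney RNA had been extracted on RNeasy columns, purified on oligo-dT beads and made into libraries with the ScriptSeq v2 kit, per the labels' protocols. The deposited files give raw counts by gene symbol, WT beside ΔPod in a first table and WT beside K2A in another. The submitters' processing notes name the build mm10 and the tools STAR 2.7.3a, featureCounts 2.0.1, Trim Galore 0.6.3, DESeq2 1.30.0, FastQC 0.11.9 and MultiQC 1.10.1, without their roles. The strand setting and the treatment of reads with several matches are not given in the sources used here. Counts of 9 of the 40 genes, which overlap a protein-coding gene on the opposite strand, are therefore uncertain in the overlapping part. They are Ccna2, Ccnd1, Ccnd3, Ccne2, Cdk2, Cdk4, Cdc20, Cdc45 and Mcm7. For Cdc20 and Cdc45 the overlapping genes were far more abundant, Elovl1 at a mean of 68.4 CPM and Ufd1 at 40.3 CPM. These overlaps are short. Cdc20 starts at 118432901 and Elovl1 ends at 118432953, and Ufd1 starts at 18811779 and Cdc45 ends at 18811987.

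The tables held 52182 and 52169 symbols and shared 52163, of which 3 with differing WT counts were left out. All 9 libraries, grouped by their labels, entered 1 edgeR 4.0.16 quasi-likelihood fit in R 4.3.3 after filterByExpr and TMM scaling. Adjustment was by Benjamini-Hochberg over 18067 genes at 0.05. SE is the log2 fold change divided by the square root of F, and 95% intervals use the t quantile at the test's degrees of freedom. With 3 against 3 libraries the smallest exact permutation p is 0.1, and such tests were not run. Lengths (union exon length) and gene coordinates are from GENCODE vM21 on mm10, and promoters from RefSeq on GRCm38.p6. Simulated counts (seed 1) were used to test the edgeR code.

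Alternatives were RLE or no scaling factors, DESeq2 1.42.0, limma 3.58.1 voom, other filters, 6 libraries, a replicate block, length terms and leaving out each library. Same-numbered ΔPod and K2A libraries deviated together from their group means (r = 0.76, 0.403 and 0.85). They were also of the same length class, so these correlations cannot decide whether the numbers pair the samples. The labels give no reason to pair them, and the main fit held no term for it. Numbers of mutant and WT libraries were not taken to pair them. The 40 genes, the lists and the tests were chosen with earlier results of these data known. The text names all 40 genes and, in each comparison, the called genes of the 5 pathway lists or, where none was called, the 4 with the smallest p. Gadd45g, Mybl2 and the genes that neighbour or overlap others were added after their values were seen.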

Additional observations from a re-analysis of the deposited data

How the results depend on the processing

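The call of Spc25 in ΔPod sat at the threshold, and 0 of the 39 cell cycle genes were called there with RLE scaling, with no filter, with only the 6 libraries compared, with the replicate block or without the 3 libraries highest in adipocyte markers. Leaving out 1 library gave 0 to 1 calls in ΔPod and 0 to 1 in K2A. In K2A 1 gene was called by DESeq2, 3 with the length slope as a covariate and 1 with the length class as a term. Some uncalled genes changed sign under an alternative, 15 of 39 in ΔPod (61 of 809 values), 20 of 39 in K2A (60 of 809) and 28 of 39 between the mutants (85 of 809). Over all genes, DESeq2 called 998 in ΔPod, 909 in K2A and 19 between the mutants. The length slope gave 2544, 2854 and 32, and the length class gave 715 and 739 against WT. The 6 compared libraries gave 54 in ΔPod. Without the adipocyte-marker libraries 47 and 4 were called. Leaving out 1 library gave 23 to 411 in ΔPod, 3 to 291 in K2A and 0 to 2 between the mutants. The cause of these shifts was not tested.

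limma-voom with sample weights gave weights from 0.0826 to 11.6 and called 14246, 14262 and 5060 of all genes and 31, 27 and 12 of the cell cycle genes. It took Ccnd3 in K2A to -0.45 on the log2 scale, from 0.07 in edgeR. Because the weights spread so widely, limma-voom without weights was added. That setting and the one without adipocyte-marker libraries were chosen after seeing the data.

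With the replicate number as a block, 270 genes were called in ΔPod, 232 in K2A and 0 between the mutants, with 0 of the 39 cell cycle genes in each. The block changed no call between the mutants. Against WT, deviations from the group means correlated at -0.62 for ΔPod 1 with WT 1 and at -0.545 for K2A 1 with WT 1. For ΔPod and K2A in turn, the values were 0.441 and 0.755 in libraries numbered 2. In libraries numbered 3 they were 0.715 and 0.706. These mixed values do not settle whether the numbers pair the samples. The filter on low counts kept Bub1, with 2 to 31 counts a library, out of the test. Among tested genes the SE was 0.54 for the abundant Ccnd3 and 0.34 for Bub1b, near 1 CPM.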
